A study of Mus musculus with 3 samples.

Results

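Plasma cells, the antibody-secreting end stage of the B cell lineage, were examined among CD45+ immune cells sorted from inflamed sciatic nerves of mice with spontaneous autoimmune neuropathy. The cells were chosen by their raw UMI counts (unique molecular identifiers, each counting 1 captured transcript). Each needed at least 10 UMIs of Jchain, which encodes the chain that joins IgA and IgM units, and at least 1 UMI each of Xbp1, a transcription factor of the secretory program, and Mzb1, a chaperone of antibody assembly. It could carry at most 1 UMI each of Siglech, of the summed Cd3d, Cd3e and Cd3g, and of the summed C1qa, C1qb and C1qc, which mark plasmacytoid dendritic cells, T cells and macrophages. This rule found 127 plasma cells among 13637 cells that had at most 5000 detected genes and at most 20% mitochondrial UMIs. The genes of the rule are described without a test throughout.

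All 3 libraries belonged to 1 group, neuropathic NOD.AireGW/+ mice. These mice are heterozygous for a mutant allele of Aire, a gene that drives display of self antigens in the thymus, on the diabetes-prone NOD background, and both features were shared by every cell analysed. Nerves were taken after cardiac perfusion and digested with collagenase IV, and CD45+ cells were sorted by flow cytometry. A single mouse gave library 1, another gave library 2, and 2 mice were pooled for library 3, so 4 mice were sampled. No control group was analysed here, and plasma cells were therefore compared with other cells of the same libraries.

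Plasma cells arise when an activated B cell replaces its B cell program with one for secretion. IRF4, BLIMP1 (encoded by Prdm1) and XBP1 drive this change, which enlarges the endoplasmic reticulum (ER) and raises the chaperones, translocation channels and vesicle coats that an antibody needs on its way out. Each cell makes antibody from 1 rearranged heavy chain V gene and, as a rule, 1 light chain V gene, so daughters of 1 B cell use the same pair. In inflamed tissue, plasma cells are held by adhesion molecules, chemokine receptors and survival signals through receptors such as BCMA (encoded by Tnfrsf17).

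Libraries 1 to 3 held 22983991, 55120460 and 3399733 UMIs. Plasma cells numbered 36 of 3848 cells in library 1 (0.936%, exact 95% binomial interval 0.656 to 1.29), 90 of 8256 in library 2 (1.09%, 0.877 to 1.34) and 1 of 1533 in library 3 (0.0652%, 0.00165 to 0.363), for a mean of 0.697% ± 0.553 (SD, n = 3 libraries). The library of pooled mice therefore had the lowest share, and its interval did not overlap those of the others. It was also the shallowest, with a median of 1726 UMIs per barcode against 3985.5 in library 1 and 4659 in library 2. The rule needs fixed numbers of raw UMIs, and the effect of depth on the share was not tested. These and all later exact binomial intervals cover counting error only. Because library 3 held 1 plasma cell, comparisons of gene levels rest on libraries 1 and 2. The libraries shared 36, 7 and 14 cell barcodes in their 3 pairings, and 0 of these belonged to a plasma cell.

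Jchain, the gene that selected the cells, had a median of 765.5, 637 and 840 UMIs per plasma cell in libraries 1 to 3. The lowest counts that entered were 11, 14 and 98 in library 1 and 21, 33 and 35 in library 2, while the highest that stayed out for Jchain alone were 4, 4 and 3 in library 1 and 8, 7 and 1 in library 2. Few cells lay near the limit. A larger group was left out by the limits on other lineages. Of 60 cells of library 1 and 149 of library 2 with at least 10 Jchain UMIs, 24 and 59 did not enter, 22 and 42 of them with over 1 Cd3 UMI and 1 and 32 with over 1 C1q UMI. Their median Jchain count was 683.5 and 482 UMIs, and their median total was 35036 and 25069 UMIs. Of these cells, 13 of 24 and 48 of 59 carried a V gene pair that was common among the plasma cells of the same library (pairs are described below). No doublet caller was run, and whether these were doublets or plasma cells with free RNA was not tested.

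The label was checked on genes that the rule did not use. Sdc1, which encodes the plasma cell surface marker CD138, had a UMI in 33 of 36 (91.7%), 80 of 90 (88.9%) and 1 of 1 plasma cells, at a median depth of 27067, 23035 and 18645 UMIs per cell. It was found in 0.422% and 0.605% of the T cells of libraries 1 and 2 (at least 3 Cd3 UMIs and 0 of Cd79a and Ms4a1), which should lack it, at a median depth of 3805 and 2796 UMIs. Irf4 had a UMI in 58.3% and 77.8% of plasma cells, Prdm1 in 25% and 33.3%, and Tnfrsf17 in 25% and 35.6%. Among defining markers of other cells, Pax5, the master regulator of B cells, had 0 UMIs in the plasma cells. Trac, a T cell receptor chain, had 2 and 0 UMIs and Lck 4 and 1. Apoe, a macrophage gene, had 0 UMIs in library 1 and 40 in library 2, where they lay in 32 of 90 plasma cells, and Lyz2 had 1 and 21. Of the plasmacytoid dendritic cell markers, Bst2 and Tcf4, which plasma cells can also express, had UMIs in 88.9% and 98.9%, and in 86.1% and 84.4%, of plasma cells.

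Summed lists of other cell types are given per 1e6 non-immunoglobulin UMIs of plasma cells and of B cells, with no test, since antibody transcripts filled much of the plasma cell RNA. The T cell list (12 and 10 of 13 genes with UMIs) summed to 191 and 128 in plasma cells of libraries 1 and 2 and 384 and 197 in B cells. The macrophage list (5 and 10 of 11 genes) summed to 1581 and 1401 against 1172 and 1783, and the plasmacytoid dendritic cell list (6 and 7 of 10) to 1243 and 1090.1 against 789 and 840.5. The dendritic cell list (3 and 4 of 7) gave 103 and 61.1 against 41.5 and 53.6, the NK cell list (3 and 2 of 6) 30.3 and 15.95 against 77.8 and 9.75, and the nerve list (2 and 2 of 6) 9.33 and 5.32 against 27.4 and 26.0. The plasmacytoid and dendritic cell lists thus summed to more in plasma cells in both libraries, and the T cell and nerve lists to less. The T cell, macrophage and plasmacytoid lists include genes of the rule (Cd3, C1q and Siglech), capped per cell in both classes. Plasma cells had more non-immunoglobulin UMIs per cell, so the cap favours lower sums in them. The sums of these lists are therefore no separate check of the label. The granulocyte list (neutrophil and mast cell markers) and the red cell list had 0 UMIs in plasma cells. In the test against B cells described below, Cd68 and Cst3 of the macrophage list, Bst2 and Tcf4 of the plasmacytoid list and Fscn1 of the dendritic cell list were called higher in plasma cells, and Apoe, Lyz2, Irf8, Lck and Mbp lower. The part of RNA from other cells in the results was not tested beyond repeating them in cells with 0 UMIs of the rule's other-lineage genes.

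Plasma cells were deep and rich in antibody transcripts. Immunoglobulin genes (424 genes of the annotation) took 57.6%, 49.96% and 61.2% of the summed UMIs of plasma cells in libraries 1 to 3 and 1.26%, 1.07% and 0.867% of those of B cells. The mean was 56.2% ± 5.72 against 1.07% ± 0.196 (SD, n = 3 libraries), a difference of 55.2 percentage points that was higher in 3 of 3 libraries (exact two-sided permutation within libraries, p = 0.25, the smallest p that 3 libraries allow). Single plasma cells ranged from 13.2% to 86.2% in library 1 and from 2.12% to 79.1% in library 2. Plasma cells held 4.76%, 4.21% and 0.548% of all UMIs of their libraries and 58.4%, 66.4% and 84.3% of all immunoglobulin UMIs. Without immunoglobulin genes the median plasma cell still had 10164, 10204 and 7241 UMIs, against 4003, 2633 and 1876 in B cells, so depth differed between the classes.

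To ask how diverse these antibodies were, the leading heavy and light V genes of each cell (most UMIs, at least 3) were read from the gene counts. A few pairs held most of the cells. In library 1, Ighv8-12 led in 25 of 36 plasma cells (69.4%), 14 of them with Igkv3-4 and 7 with Igkv6-13. In library 2, 29 of 90 plasma cells paired Ighv3-6 with Igkv12-44, 23 paired Ighv5-17 with Igkv3-4, 18 paired Ighv5-6 with Igkv5-39 and 6 paired Ighv5-17 with Igkv12-44. The single plasma cell of library 3 paired Ighv1-55 with Igkv15-103. The leading segments are shown because they identify these groups. Each line gives the last 100 bases of the V exon, a coding exon, 5′ to 3′ on the gene's strand, from the GENCODE annotation on mm10, with the codon of the cysteine that opens the third complementarity-determining region in capitals. These are reference sequences and not the NOD alleles or the mutated genes of these cells.
Ighv8-12: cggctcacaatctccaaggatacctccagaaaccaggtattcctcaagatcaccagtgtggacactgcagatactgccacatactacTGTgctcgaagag
Ighv3-6: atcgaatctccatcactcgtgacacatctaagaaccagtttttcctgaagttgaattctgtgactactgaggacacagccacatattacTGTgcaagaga
Ighv5-17: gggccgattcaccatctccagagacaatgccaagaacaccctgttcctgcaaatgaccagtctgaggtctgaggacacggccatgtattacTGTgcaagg
Ighv5-6: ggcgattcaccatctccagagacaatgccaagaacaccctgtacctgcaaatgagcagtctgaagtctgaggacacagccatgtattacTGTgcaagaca
Igkv3-4: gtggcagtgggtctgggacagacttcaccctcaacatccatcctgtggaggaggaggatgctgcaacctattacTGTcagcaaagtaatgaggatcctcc
Igkv12-44: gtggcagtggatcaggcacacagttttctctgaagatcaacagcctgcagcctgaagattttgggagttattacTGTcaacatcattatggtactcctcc

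The heavy chain segments lie on the minus strand of chromosome 12, Ighv8-12 at chr12:115647945-115648044, Ighv3-6 at chr12:114288152-114288251, Ighv5-17 at chr12:113859149-113859248 and Ighv5-6 at chr12:113625506-113625605. Igkv3-4 lies on the plus strand at chr6:70672278-70672377 and Igkv12-44 on the minus strand at chr6:69814631-69814730. V exons were aligned at the cysteine codon without gaps. Ighv5-17 and Ighv5-6 were equal at 272 of 299 bases (91.0%), so reads could be split between them. All other pairs of these heavy V genes were equal at 35.8% to 50.2%, values that can understate identity where lengths differ. Within a cell the leading heavy V gene held a median of 100% and 99.5% of heavy V UMIs in libraries 1 and 2. The leading light V gene held a median of 96.3% and 93.0% of light V UMIs. It held at least 70% in 24 of 36 cells of library 1, where the lowest was 22.4%, and in 85 of 90 of library 2. In library 1 its median was 48.6% in the 7 cells led by Igkv6-13 and 43.1% in the 3 led by Iglv3. In such cells the light gene of a pair rests on which of several light V genes ranked first.

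**Figure D1:**
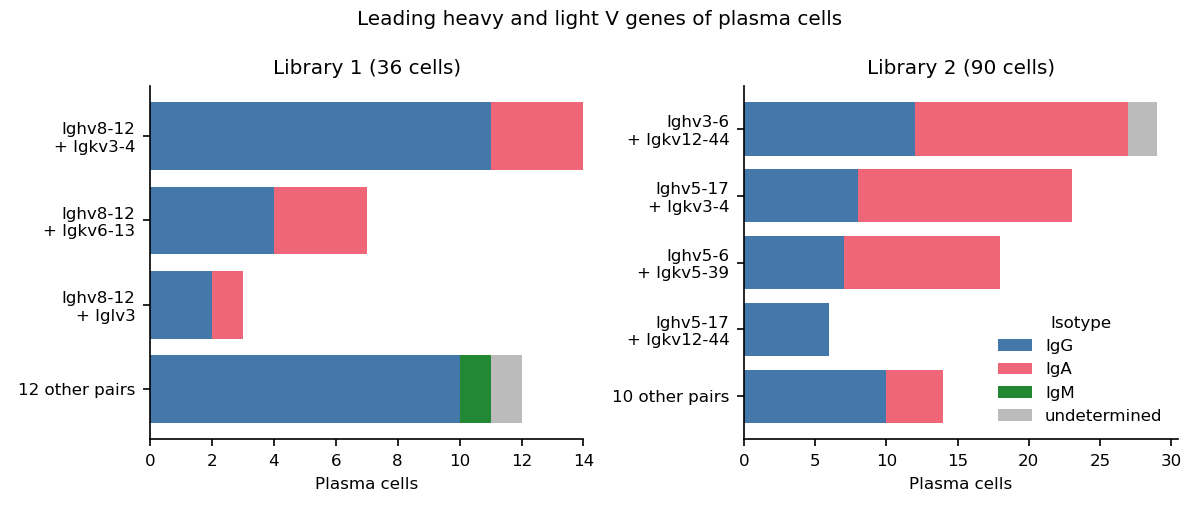
Number of plasma cells (x axis) by leading heavy and light V gene pair, for library 1 (36 cells) and library 2 (90 cells), with bar colors for the isotype called from constant region UMIs. In library 1 the 3 most frequent pairs all used Ighv8-12 (14, 7 and 3 cells), and in library 2 the 4 most frequent held 29, 23, 18 and 6 cells.

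Pairs seen in at least 5 cells held 21 of 36 plasma cells of library 1 (58.3%) and 76 of 90 of library 2 (84.4%). In all, 15 pairs occurred in library 1, 12 of them in 1 cell, and 14 in library 2, 6 of them in 1 cell. Of the 29 pairs, 0 occurred in both libraries. The overlap to be found between samples of this size was not estimated, so the count is not read as a difference between mice. Among the V genes taken singly, 1 of 20 heavy and 5 of 17 light genes were seen in both. B cells of the same nerves were diverse by the same measure. The 229 and 88 B cells with both V genes called had 205 and 85 different pairs, with at most 3 and 2 cells in a pair, and 2 B cells in each library carried one of the frequent plasma cell pairs. Counts of V genes do not show the junction sequence, so a shared pair was not taken as proof of a shared clone. T cells, which make no antibody, also carried UMIs of these genes. In library 1, 14.3% of them had an Ighv8-12 UMI (at most 137 in 1 cell) and 29.0% an Igkv3-4 UMI (at most 511), and in library 2, 7.26% had an Ighv3-6 UMI (at most 5), 3.99% an Ighv5-6 UMI (at most 2) and 19.6% an Igkv12-44 UMI (at most 54). Whether these came from free RNA or from doublets was not tested.

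Some V genes travelled together within cells. In library 1, all 7 cells led by Ighv8-12 and Igkv6-13 also had 166 to 1518 UMIs of the lambda gene Iglv3, and the 3 cells led by Ighv8-12 and Iglv3 had 763 to 1283 UMIs of Igkv6-13. By contrast, the 14 cells with Ighv8-12 and Igkv3-4 had 0 to 14 Iglv3 UMIs and 0 of Igkv6-13. These 10 cells thus shared a second light chain gene that the 14 did not. In library 2, all 6 cells with Ighv5-17 and Igkv12-44 had 44 to 77 UMIs of Ighv13-2, a gene with 0 UMIs in every other plasma cell of that library.

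Nearly all plasma cells chosen by the rule were class switched. In library 1, 27 of 36 (75%, exact interval 57.8 to 87.9) were IgG, 7 (19.4%, 8.19 to 36.0) IgA, 1 IgM and 1 undetermined, where a call needed 5 constant region UMIs with 70% from 1 class. In library 2, 43 of 90 (47.8%, 37.1 to 58.6) were IgG, 45 (50%, 39.3 to 60.7) IgA and 2 undetermined. The IgG share was therefore higher in library 1 and the IgA share higher in library 2, with no test between single mice. Among IgG cells, 21 used Ighg2b, 4 Ighg2c and 2 Ighg1 in library 1, and 25, 15 and 3 did so in library 2, while the plasma cell of library 3 used Ighg2b. Constant region counts called 33 of 36 (91.7%) and 73 of 90 (81.1%) plasma cells kappa and left 3 and 17 undetermined, and a kappa V gene led in 33 of 36 and 90 of 90.

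Cells with 1 V pair could differ in isotype. The pair Ighv8-12 with Igkv3-4 comprised 11 IgG and 3 IgA cells, and Ighv8-12 with Igkv6-13 comprised 4 and 3. In library 2 the split was 12 IgG and 15 IgA for Ighv3-6 with Igkv12-44, 8 and 15 for Ighv5-17 with Igkv3-4, and 7 and 11 for Ighv5-6 with Igkv5-39. Both isotypes thus occurred in 5 of the 6 pairs with at least 5 cells. The exception was Ighv5-17 with Igkv12-44, whose 6 cells were all IgG, called as Ighg2b.

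To define the plasma cell program in the nerve, UMIs were summed over the plasma cells and over the B cells (at least 1 UMI each of Cd79a and Ms4a1, at most 3 of Jchain, and the same limits on Siglech, Cd3 and C1q UMIs as plasma cells) of libraries 1 and 2, and tested across genes in edgeR (quasi-likelihood F test, library as blocking factor, p-values adjusted by the Benjamini-Hochberg method). Levels in these tests are CPM (UMIs of a gene per 1e6 UMIs of the sum) after TMM scaling (trimmed mean of M values, which adjusts for library composition), given for library 1 and then library 2. Of 7293 genes tested, 3181 (43.6%) passed an adjusted p of 0.05, 1651 (22.6%) higher and 1530 (21%) lower in plasma cells, and the median log2 fold change over all genes was −0.08. These shares are the background for the gene lists below, where a gene is called when it passes this threshold. A gene with 0 UMIs in one class passed the filter for low counts on the other class alone. Its direction was therefore fixed once it was tested. With DESeq2, 1657 genes were called, with every cell thinned to 1000 non-immunoglobulin UMIs 975, and without the 5% of cells with the most UMIs, which kept 7 and 19 plasma cells, 877.

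Genes of plasma cell identity were higher than in B cells, 15 of 16 tested, with a median log2 fold change of 4.4. Sdc1 was at 244 and 257 CPM in plasma cells and 0.956 and 2.01 CPM in B cells (log2 fold change 7.46, SE 0.272, adjusted p = 2.77e-06). Fkbp11, a folding enzyme of secretory cells, was at 456 and 578 CPM against 2.39 and 7.05 CPM (6.92, SE 0.309). The transcriptional regulators were named whatever their change. Irf4 was at 166 and 202 CPM against 81.7 and 99.7 CPM (1.02, SE 0.142), Prdm1 at 20.9 and 29.3 against 7.17 and 1.01 (2.42, SE 0.587, with 1.43 and 3.92 in the single libraries), and Pou2af1, a coactivator of immunoglobulin genes, at 227 and 174 against 87.0 and 63.4 (1.42, SE 0.145). In every one of these genes both plasma cell sums lay above both B cell sums. The exception in the list was Cd38, an ectoenzyme that marks human plasma cells but is low on mouse ones, at 5.24 and 8.80 CPM against 152 and 112 CPM (−4.02, SE 0.291).

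The secretory machinery was higher along the whole route of an antibody. Of 29 tested genes of the unfolded protein response and ER-associated degradation, 27 were higher and 1 lower, with a median log2 fold change of 2.48. Derl3, which helps pull misfolded proteins out of the ER, was at 543 and 582 CPM in plasma cells against 2.87 and 3.02 CPM in B cells (7.53, SE 0.277). Edem1, which sorts misfolded glycoproteins, was at 1690 and 1426 CPM against 33.9 and 20.1 CPM (5.88, SE 0.346). The chaperone Hsp90b1 was at 7491 and 5098 CPM against 245 and 159 CPM (4.97, SE 0.277), and Hspa5, the chaperone BiP, at 1969 and 1187 CPM against 323 and 170.2 CPM (2.70, SE 0.286). Among the stress sensors, Ern1, the kinase that splices Xbp1, was at 22.7 and 30.8 CPM against 3.82 and 6.04 CPM (2.43, SE 0.421), Atf6 differed by 1.48 and Eif2ak3 by 1.54 on the log2 scale. The call for Eif2ak3 was lost after thinning and without the deepest cells. Ppp1r15a, which restores translation, was the 1 gene of the list called lower (−1.08, SE 0.180), and Ddit3, encoding the proapoptotic factor CHOP, was at 33.2 and 28.6 CPM against 19.6 and 16.1 CPM and missed the threshold (0.79, adjusted p = 0.0728).

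Entry into the ER showed the same pattern, with 22 of 22 tested genes of signal recognition and translocation higher and a median of 2.95. Ssr4, a subunit of the translocon-associated complex, was at 3896 and 3332 CPM against 121 and 135 CPM (4.81, SE 0.310), and Sec61b, a subunit of the channel, at 2243 and 2632 CPM against 153 and 245 CPM (3.65, SE 0.306). Of 17 tested genes of disulfide formation and lectin chaperones, 15 were higher (median 2.77), among them the peroxidase Prdx4 (5.48, SE 0.364) and the disulfide isomerase Pdia4 (5.03, SE 0.341). Of 16 genes of N-glycosylation, 14 were higher (median 2.65), led by the oligosaccharyltransferase subunits Ddost (4.00) and Rpn1 (3.87). All 23 tested genes of ER to Golgi transport were higher (median 2.14). Lman1, a cargo receptor, was at 702 and 612 CPM against 17.2 and 15.1 CPM (5.34, SE 0.262), and the coat subunit Sec24d differed by 4.34 (SE 0.424). In the list of amino acid supply, 9 of 11 were higher, including Slc7a5, a leucine transporter (3.55, SE 0.275), and Asns, asparagine synthetase, with 49 UMIs in plasma cells and 1 in B cells (ratio of levels 78.0, counting interval 13.4 to 3144). Without dividing plasma cells, the counts were 27 of 29, 22 of 22, 16 of 17, 14 of 16 and 23 of 23 higher for the 5 secretory lists.

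**Figure D2:**
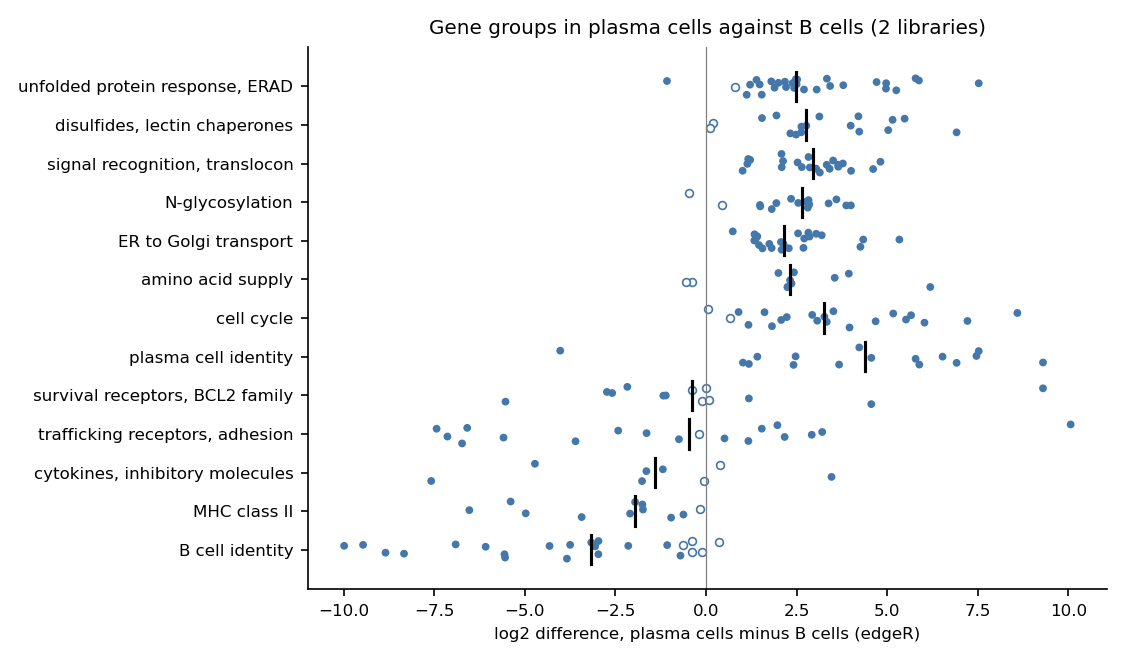
Log2 difference between plasma cells and B cells (x axis, edgeR, libraries 1 and 2) for each tested gene of 13 gene lists, with filled points for an adjusted p under 0.05, open points otherwise and a bar at the list's median. The secretory lists lie to the right of 0 with medians from 2.14 to 2.95, and the B cell identity and MHC class II lists lie to the left with medians of −3.17 and −1.96.

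Promoters of this program were searched for the ER stress element, the letters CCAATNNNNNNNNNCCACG that ATF6 binds with NF-Y, on both strands from 250 bases before to 50 after the start of each gene (RefSeq, GRCm38.p6). The element was present in 37 of 27025 genes (0.137%). In the unfolded protein response list it was present in 6 of 26 genes with a promoter sequence, namely Creld2, Derl3, Dnajc3, Hsp90b1, Hspa5 and Syvn1, and in the folding list in 3 of 15, namely Calr, Canx and Pdia6. All 9 of these genes were called higher in plasma cells. So were 27 of 29 tested genes of the first list and 15 of 17 of the second. The count of 9 is therefore near the share of the lists, and a link between element and change was not tested. The translocation, glycosylation and transport lists had 0 matches among 16, 12 and 20 promoters. The core TGACGTGG, which XBP1 binds, was in 193 of 27025 promoters (0.714%) and in 4 of 20 of the transport list (Copb1, Copb2, Kdelr3, which was not tested for expression, and Sec24d). It was in 2 of 15 folding promoters (Txndc11 and Txndc5) and in 0 of 26 of the unfolded protein response, 0 of 16 of translocation and 0 of 12 of glycosylation. The windows of 3 of the 9 genes with the ER stress element, those with the largest log2 fold change, are shown. They carry the letters in both orientations. Each is given 5′ to 3′ on the gene's strand with the element in capitals. Derl3 is from chr10:75893212-75893290 (plus strand), Creld2, a chaperone, from chr15:88819490-88819568 (plus strand) and Hsp90b1 from chr10:86705503-86705686 (minus strand, 2 elements).
Derl3: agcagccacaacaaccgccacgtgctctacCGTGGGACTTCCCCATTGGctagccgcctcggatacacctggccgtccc
Creld2: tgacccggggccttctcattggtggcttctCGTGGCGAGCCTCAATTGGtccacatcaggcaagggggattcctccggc
Hsp90b1: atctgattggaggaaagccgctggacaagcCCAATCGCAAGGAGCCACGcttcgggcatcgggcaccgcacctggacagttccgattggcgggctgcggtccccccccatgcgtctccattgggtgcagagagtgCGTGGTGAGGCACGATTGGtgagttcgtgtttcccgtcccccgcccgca

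The B cell program was lower in plasma cells, with 18 of 23 tested genes lower, 0 higher and a median log2 fold change of −3.17. Pax5, Fcer2a (the low-affinity IgE receptor) and Cd22 (an inhibitory receptor) had 0 UMIs in plasma cells and were at least 27.2-fold, 56.7-fold and 64.3-fold lower than in B cells against a floor of 3 UMIs over the group. Such genes entered the test through B cells alone, which favours the count of lower genes. The inhibitory coreceptor Cd72 was at 0 and 0.733 CPM against 198 and 197 CPM (1 UMI against 610, ratio of levels 383, counting interval 68.5 to 15154). Ebf1, a factor that specifies B cells, stayed measurable at 38.4 and 36.6 CPM against 561 and 517 CPM (−3.84, SE 0.222), and Cd79b, a signalling chain of the B cell receptor, differed least among the called genes (−0.70, adjusted p = 0.0329). For the genes with 0 UMIs in one class, the edgeR call was not shared by DESeq2 in Pax5, Fcer2a, Ighd and Fcmr.

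Antigen presentation through MHC class II was lower, in 10 of 11 tested genes (median −1.96), but not silent. Ciita, the transactivator of the class II genes, was at 0 and 2.93 CPM in plasma cells against 98.5 and 84.6 CPM in B cells (−5.39, SE 0.457). H2-Aa, a class II alpha chain, was at 1725 and 1776 CPM against 6676 and 8366 CPM (−2.09, SE 0.231), and the invariant chain Cd74 at 11202 and 10654 CPM against 16921 and 16711 CPM (−0.62, SE 0.162). The differences ranged from −6.53 for H2-Oa, a modulator of peptide loading, to −0.18 for the protease Ctss, which was not called. With each cell thinned to 1000 non-immunoglobulin UMIs, H2-Aa was seen in 82.4% and 66.7% of plasma cells, 99.6% and 99.5% of B cells and 7.27% and 13.2% of T cells (34 of 36 and 90 of 90 plasma, 259 of 275 and 188 of 188 B and 2367 of 2609 and 3551 of 3635 T cells kept, where unthinned values were 97.2% and 100% in plasma cells and 14.8% and 26.3% in T cells).

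Receptors for position and retention went both ways, with 8 of 18 tested genes higher and 9 lower in plasma cells (median −0.47). Ccr10, the receptor for the epithelial chemokines CCL27 and CCL28, was at 101 and 117 CPM in plasma cells, in 58.3% and 55.6% of them, and had 0 UMIs in B cells, which makes it at least 116-fold higher (218 UMIs, call not shared by DESeq2). Among T cells 0.0767% and 0.165% had a Ccr10 UMI, and at an equal depth of 1000 non-immunoglobulin UMIs the shares were 5.88% and 7.78% of plasma cells and 0.0422% and 0.0282% of T cells. Cxcr3, the receptor for interferon-induced chemokines, was at 150.1 and 138 CPM against 8.60 and 26.2 CPM (3.21, SE 0.349, adjusted p = 0.000211). After thinning, Cxcr3 was seen in 23.5% and 16.7% of plasma cells, 1.54% and 1.6% of B cells and 21.5% and 13.9% of T cells (unthinned 66.7% and 67.8%, 5.09% and 5.32%, and 49.6% and 33.9%). The adhesion receptor Cd44 was at 105 and 128 CPM against 18.2 and 35.2 CPM (2.17, SE 0.228), and Selplg, a selectin ligand, differed by 1.97. Among the integrin genes of the list, Itgal (1.54), Itgb2 (1.17) and Itga4 were called higher and Itgb1 (−0.75) lower. Itga4 was at 152 and 122 CPM against 109.95 and 82.6 CPM (0.51, adjusted p = 0.0233), a call that was lost under 7 alternatives, and its partner Itgb7 was at 119 and 45.4 CPM against 109 and 68.5 CPM (−0.20, adjusted p = 0.470, and 0.12 without library 2).

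Receptors of follicles, lymph nodes and egress were lower. Ccr7, the lymph node homing receptor, was at 1.75 and 12.5 CPM in plasma cells against 927 and 637 CPM in B cells (−6.59, SE 0.597). Cxcr5, the follicle receptor, had 1 UMI in plasma cells and 428 in B cells (ratio of levels 269, counting interval 48.0 to 10640). S1pr1, the receptor for exit into blood and lymph, was at 0 and 3.66 CPM against 162 and 111 CPM (−5.59, SE 0.435). Cxcr4, the receptor that draws plasma cells to bone marrow, was at 6.98 and 13.9 CPM against 83.7 and 171 CPM (−3.60, SE 0.240). In each of these genes both plasma cell sums lay below both B cell sums.

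**Figure D3:**
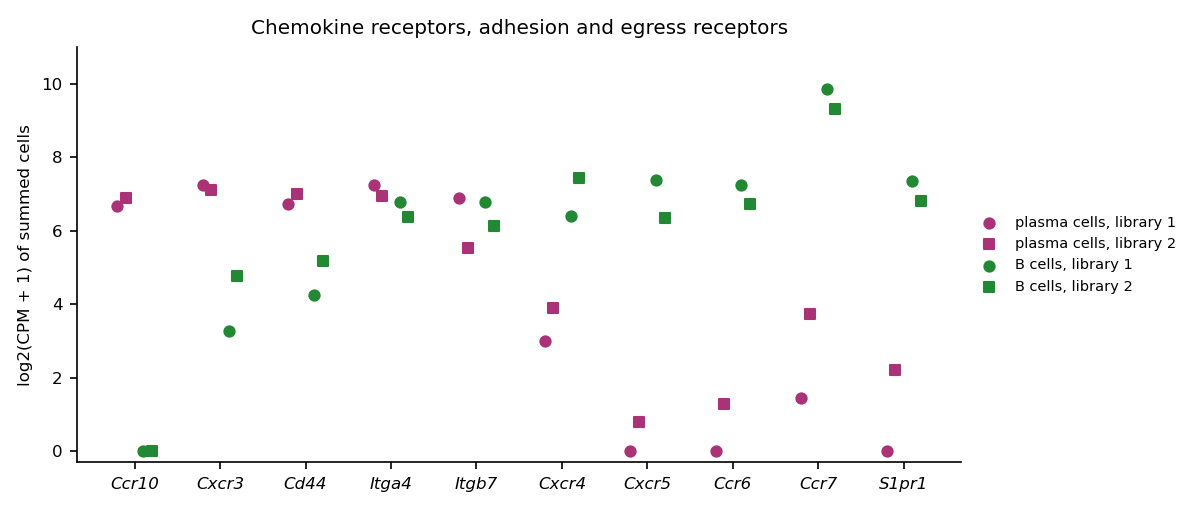
Level of 10 chemokine, adhesion and egress receptor genes (y axis, log2 of CPM + 1) in summed plasma cells and B cells of library 1 (circles) and library 2 (squares). Ccr10, Cxcr3 and Cd44 lie higher in plasma cells, Itga4 and Itgb7 lie close together, and Cxcr4, Cxcr5, Ccr6, Ccr7 and S1pr1 lie lower.

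Of 13 tested survival genes, 3 were higher and 6 lower. Tnfrsf17, which encodes BCMA, was at 69.8 and 47.6 CPM in plasma cells and had 0 UMIs in B cells (at least 55.7-fold higher, not called by DESeq2), although 28 of its 40 UMIs in library 1 came from 1 cell. Cd28, a costimulatory receptor that also acts on plasma cells, was at 115 and 74.0 CPM against 6.69 and 0 CPM (4.56, SE 0.443). Bcl2, an antiapoptotic gene, was lower at 12.2 and 10.3 CPM against 47.3 and 51.4 CPM (−2.17, SE 0.317), and so was Il21r, the receptor for the helper cytokine IL-21 (−2.59). Among 8 tested mediators, 1 was higher and 5 lower. Lgals1, an immunomodulatory lectin, was at 555 and 1290.0 CPM against 45.4 and 129 CPM (3.46, SE 0.281), Ltb, which encodes lymphotoxin beta, was lower (−4.72, SE 0.195), and Cd274, encoding PD-L1, was at 131 and 88.0 CPM against 63.6 and 102 CPM and was not called (0.40, adjusted p = 0.275, and −0.21 without library 1).

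Outside the lists, the largest increases by the naming rule included Prg2, known as eosinophil major basic protein, at 833 and 595 CPM in plasma cells against 0 and 2.01 CPM in B cells (1289 UMIs against 2, ratio of levels 1026, counting interval 284 to 8484). It had UMIs in 24 of 36 and 55 of 90 plasma cells, and in library 1 a single cell gave 176 of its 477 UMIs. The granulocyte list had 0 UMIs in these cells, but it holds neutrophil and mast cell markers and no eosinophil gene. Whether any Prg2 RNA came from eosinophils was not tested. Slpi, a secreted protease inhibitor, was at 16194 and 14516 CPM against 13.9 and 45.3 CPM (9.24, SE 0.541), and in library 1 a single cell gave 3402 of its 9276 UMIs. Selenom, an ER selenoprotein, differed by 6.40, Mt1, a metallothionein, by 6.29, Pon3, a lactonase, by 5.92 and Plpp5, a lipid phosphatase, by 7.02. The largest decreases included the IgM receptor Fcmr (0 UMIs in plasma cells, at least 131-fold lower), Plaur, the urokinase receptor (−6.69), and Btg1, an antiproliferative factor (−5.50). Of 9 tested interferon-induced genes, 2 were higher and 4 lower, and the call for Isg15 (2.52) rested on single cells that gave 24 of 42 and 150 of 161 of its UMIs, with −1.17 in cells with 0 UMIs of other lineages.

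Plasmacytoid dendritic cells (at least 3 Siglech UMIs with the same limits on Cd3 and C1q, 57 and 96 cells) also secrete and express Xbp1, Mzb1 and Jchain, and were compared next. The comparison shares its plasma cell sums with the one above. Of 6393 genes tested, 2844 (44.5%) were called, 1353 (21.2%) higher and 1491 (23.3%) lower in plasma cells. Secretory genes were higher than in these cells too, with 24 of 30 tested genes of the unfolded protein response (median log2 fold change 1.66), 22 of 22 of translocation (1.93) and 21 of 23 of transport (1.53), against a median of −0.07 over all genes. Hsp90b1 was at 7580.1 and 5119 CPM against 559.9 and 659.6 CPM (3.36, SE 0.220), Hspa5 at 1993 and 1192 CPM against 531 and 367 CPM (1.80, SE 0.190) and Sec61b at 2270.0 and 2643 CPM against 622 and 748 CPM (1.84, SE 0.180). The markers of plasmacytoid dendritic cells were lower in 9 of 9 tested genes, among them the lineage factor Irf8 at 38.9 and 45.6 CPM against 1319 and 1240.0 CPM (−4.90, SE 0.241). The markers Klk1 and Cd300c had 0 UMIs in plasma cells and entered the test through the plasmacytoid dendritic cells alone. Their direction was fixed, so the count of 9 is not a separate check of the label.

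Receptors and mediators also differed from plasmacytoid dendritic cells. Ccr10 was at 102 and 118 CPM against 0 UMIs, Cxcr3 at 152 and 138 CPM against 45.6 and 51.9 CPM (1.57, SE 0.260) and Itga4 at 154 and 122 CPM against 38 and 31.2 CPM (1.99, SE 0.271). Cd274 was at 132 and 88.3 CPM against 12.4 and 7.79 CPM (3.44, SE 0.331). In the other direction, Ccr9, a gut homing receptor, was at 1.77 and 0.736 CPM against 537 and 451 CPM (2 UMIs against 912, ratio of levels 482, counting interval 133 to 3984), and Ccl4, a chemokine for T cells and macrophages, at 7.07 and 2.21 CPM against 3423 and 1463 CPM (−9.08, SE 0.305). Pou2af1 was at 229.65 and 175 CPM against 0 UMIs. DESeq2 did not call Ccr10 or Pou2af1 in this comparison.

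A subset of plasma cells was dividing, by at least 3 UMIs summed over Mki67, Top2a, Cdk1, Birc5, Ube2c, Nusap1, Ccnb2 and Cdca8. Such cells were 5 of 36 in library 1 (13.9%, exact interval 4.67 to 29.5) and 21 of 90 in library 2 (23.3%, 15.1 to 33.4). At an equal depth of 1000 non-immunoglobulin UMIs, a UMI of any of these 8 genes was found in 8.82% and 23.3% of plasma cells, 2.32% and 1.6% of B cells and 10.7% and 6.81% of T cells (unthinned 36.1% and 45.6%, 8.73% and 6.38%, and 24.5% and 14.8%). Dividing cells were found in both isotypes, in 3 of 27 and 11 of 43 IgG cells and in 2 of 7 and 9 of 45 IgA cells. By V pair they were 0 of 14 for Ighv8-12 with Igkv3-4, 1 of 7 for Ighv8-12 with Igkv6-13, 3 of 3 for Ighv8-12 with Iglv3, 4 of 29, 4 of 23 and 6 of 18 for the 3 most frequent pairs of library 2, and 5 of 6 for Ighv5-17 with Igkv12-44. The Igkv6-13 and Iglv3 pairs of library 1 were separated only by which of these light genes led. All their cells carried both.

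Plasma cells called dividing had a lower immunoglobulin share of their UMIs. The median immunoglobulin share was 17.1% in the 5 dividing and 63.1% in the 31 other plasma cells of library 1, and 19.4% in the 21 dividing and 60.1% in the 69 others of library 2. The ranges overlapped, since dividing cells reached 41.4% and 47.3% and others went down to 16% and 2.12%. Their median total was 34389 against 25914 UMIs in library 1 and 25350 against 22007 in library 2, and their non-immunoglobulin count was 25360 against 9309 and 19736 against 9573. The lower share thus went with more UMIs of other genes, and depth differed between these groups as well. The call used raw UMIs of non-immunoglobulin genes, which favours cells with more of them and so a lower immunoglobulin share. The share was not compared with dividing cells called at equal depth.

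**Figure D4:**
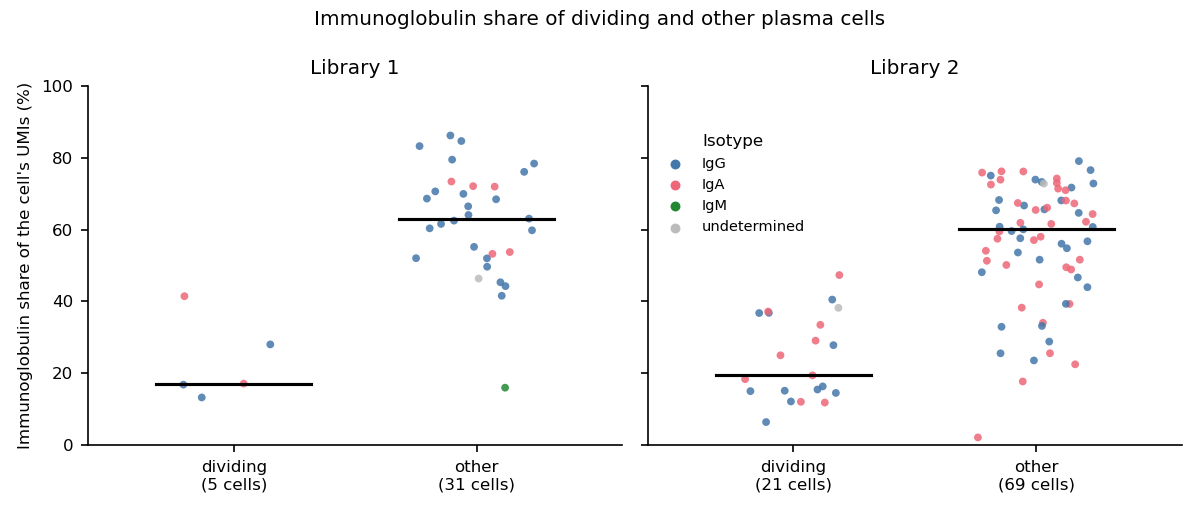
Immunoglobulin share of each plasma cell's UMIs (y axis, percent) for dividing and other plasma cells of libraries 1 and 2, colored by isotype, with a line at the median. The medians of dividing cells are 17.1% and 19.4% and those of other cells 63.1% and 60.1%.

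The comparison of dividing with other plasma cells, added after the data were seen, called 548 of 4052 genes (13.5%), 283 (6.98%) higher and 265 (6.54%) lower in dividing cells, with a median log2 fold change over all genes of 0.01. All 15 tested cell cycle genes other than the 8 that defined the group were higher. The chromatin protein Hmgb2 was at 673 and 634 CPM against 46.1 and 45.2 CPM (3.83, SE 0.134). The cells were chosen by genes of the same list, which favours this count, so it is not a separate check of division. Outside the lists, the DNA clamp cofactor Pclaf was at 343 and 309 CPM against 2.01 and 1.84 CPM (7.27, SE 0.245). Antibody genes were lower in 8 of 9 tested constant genes, with Igkc at 7463 and 7196 CPM against 42186 and 31719.6 CPM (−2.32, SE 0.257). In the comparison with B cells, 19 of 21 tested cycle genes were higher with all plasma cells. Without the dividing plasma cells 7 could be tested and 0 were higher, a count that the removal by cycle genes in plasma cells alone fixes in part and that is no evidence of a difference from B cells.

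The plasma cell identity genes were lower in dividing cells, 11 of 15 tested (median −1.53). Sdc1 was at 64.4 and 67.9 CPM against 245 and 265 CPM (−1.95, SE 0.148, adjusted p = 0.0155), Irf4 at 57.2 and 66.8 CPM against 158 and 198 CPM (−1.53, SE 0.165) and Ly6c2, a surface antigen, at 46.5 and 29.6 CPM against 311 and 266 CPM (−3.00, SE 0.186). These are levels relative to the other RNA of the cells, whose non-immunoglobulin total was larger in dividing cells. In raw UMIs per cell, the median for Sdc1 was 4 in dividing and 3 in other plasma cells of library 1 and 3 and 4 in library 2, and for Irf4 it was 4 and 1, and 2 and 3. The call for Sdc1 was lost after thinning. In the unfolded protein response list 11 of 29 were lower and 0 higher, including Sel1l, of ER-associated degradation, at 53.7 and 44.9 CPM against 213 and 192 CPM (−2.05, SE 0.168). The chaperones Hspa5 (−0.29, adjusted p = 0.293), Hsp90b1 (−0.17, 0.621) and Manf (−0.02, 0.960) were not called. In translocation 5 of 22, in folding 7 of 17, in glycosylation 0 of 16 and in transport 1 of 24 were lower. With scaling that left out immunoglobulin genes, 17 of 29 genes of the unfolded protein response, 8 of 22 of translocation (1 higher), 9 of 17 of folding, 3 of 16 of glycosylation and 3 of 23 of transport were lower, so the counts depend on the scaling.

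Levels of surface molecules, relative to the other RNA of the cells, also differed between dividing and other plasma cells. Cd274 was at 7.16 and 8.76 CPM against 146 and 103 CPM (−3.75, SE 0.307), Ccr10 at 28.6 and 35.0 CPM against 100.3 and 118 CPM (−1.76, SE 0.216) and Itgb7 at 21.5 and 14.2 CPM against 124 and 45.2 CPM (−2.01, SE 0.325), while Cxcr3 was not called (0.12, adjusted p = 0.811). In raw UMIs per cell, the median for Ccr10 was 1 in dividing and in other plasma cells of both libraries. For Cxcr3 it was 5 in dividing and 1 in other plasma cells of library 1 and 3 and 1 in library 2. Cd274 had a UMI in 1 of 5 dividing and 15 of 31 other plasma cells of library 1, and in 6 of 21 and 36 of 69 of library 2. Prg2 was at 60.8 and 4.38 CPM against 923 and 745 CPM (−5.31, SE 0.749). Among class II genes, H2-DMb2, a peptide editor, was at 118 and 132 CPM against 28.1 and 37.8 CPM (1.89, SE 0.210) and H2-Aa was not called (0.03, adjusted p = 0.920). Psat1, of serine synthesis, was at 39.4 and 30.6 CPM against 8.02 and 5.53 CPM (2.37, SE 0.366), a call that DESeq2 did not share, and the Itgb7 call was lost without the library block.

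IgA and IgG plasma cells were compared last, also after the data were seen, with 7 and 45 IgA and 27 and 43 IgG cells. They differed in 15 of 3979 genes tested (0.377%), 6 (0.151%) higher and 9 (0.226%) lower in IgA cells, and the median log2 fold change over all genes was 0.0012. With scaling that left out immunoglobulin genes, 5 were higher and 4 lower. All 15 calls were lost without the library as a block, where 0 genes were called and 79 had an unadjusted p under 0.05. Of the 15 genes, 6 were V genes, which vary with the V pairs that make up each isotype.

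Ccr10 was higher in IgA cells, at 115 and 108 CPM against 35.2 and 27.5 CPM in IgG cells (1.86, SE 0.265, adjusted p = 0.0234), with a UMI in 6 of 7 and 31 of 45 IgA cells and in 14 of 27 and 17 of 43 IgG cells. Txndc5, a disulfide isomerase, was at 1267 and 1544 CPM against 452 and 311 CPM (1.90, SE 0.254, adjusted p = 0.0234). Tnfrsf17 was at 31.7 and 52.5 CPM against 6.13 and 3.14 CPM (3.39, SE 0.522, adjusted p = 0.0324), in 4 of 7 and 27 of 45 IgA cells and 4 of 27 and 3 of 43 IgG cells. In the other direction, Pld4, an endosomal nuclease, was at 7.92 and 10.1 CPM against 64.3 and 65.9 CPM (−2.76, SE 0.381), Plac8 at 31.7 and 25.8 CPM against 98.0 and 123 CPM (−2.04, SE 0.291) and Vim, the filament vimentin, at 142 and 393 CPM against 395 and 932 CPM (−1.35, SE 0.191). The sums of the isotypes did not overlap in these 6 genes, although for Vim the IgA sum of library 2 was close to the IgG sum of library 1. Isg15 (3.53) and Gm50428 (−1.93) were called on the UMIs of single cells, with 150 of 153 Isg15 UMIs of the IgA cells of library 2 in 1 cell.

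By list, 2 of 15 plasma cell identity genes (Tnfrsf17 and Txndc5) and 1 of 17 folding genes (Txndc5, which is in both lists) were called, both higher in IgA cells. Of the other secretory lists, 0 of 29 genes of the unfolded protein response, 0 of 22 of translocation, 0 of 16 of glycosylation and 0 of 23 of transport were called, with medians of −0.07, 0.16, 0.06 and 0.05. With 0.377% of all genes called, counts of 0 in lists of this size are at the background. Sdc1 (0.37, SE 0.228), Irf4 (0.03, SE 0.350), Cxcr3 (−0.66, SE 0.274) and Itga4 (−0.71, SE 0.256) were not called. In cells with 0 UMIs of other lineages, and where an isotype call needed 90%, Ccr10, Txndc5, Tnfrsf17, Pld4, Plac8 and Vim all lost their calls. When only V pairs with both isotypes were used, Txndc5 and Pld4 kept theirs and the other 4 did not.

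**Figure D5:**
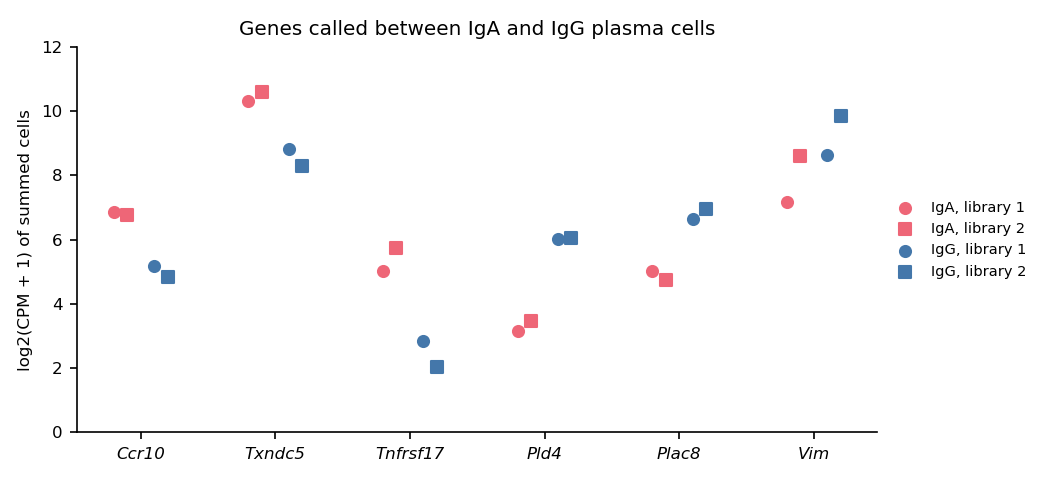
Level of 6 genes called between IgA and IgG plasma cells (y axis, log2 of CPM + 1) in the summed cells of library 1 (circles) and library 2 (squares). Ccr10, Txndc5 and Tnfrsf17 lie higher in IgA cells and Pld4, Plac8 and Vim lie lower within each library.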

How the data were processed

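Single-cell 5′ gene expression libraries of CD45+ sciatic nerve cells were used. Per the labels and file headers, the authors mapped reads to mm10 with Cell Ranger (5.0.1 for library 1, 6.1.2 for libraries 2 and 3) and deposited raw UMI counts of 32285 genes per filtered barcode. Library 1 came without a gene list and took the row order of the others (Spearman correlation of row totals 0.950 and 0.929 with libraries 2 and 3, against 0.355 and 0.324 after a shift by 1 row, across genes). Cells with over 5000 genes (54, 42 and 0 cells) or over 20% mitochondrial UMIs (24, 13 and 0) were left out. The members and gene lists were chosen with earlier results of these data known.

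Counts were summed per library and class (at least 5 cells) and tested with edgeR 4.0.16 in R 4.3.3 (TMM, filterByExpr, quasi-likelihood, Benjamini-Hochberg over all genes tested, threshold 0.05). The 2 classes of a library came from the same mice, so the library was the block. The 4 sums left 1 residual degree of freedom. The dispersion of each gene was moderated toward a trend over all genes, so p-values rest on this shared trend as well as on the spread between 2 mice. DESeq2 1.42.0, scaling without immunoglobulin genes, no filter, no block, stricter and looser rules, thinning to 1000 UMIs and leaving out each library were alternatives. A comparison of IgM with switched cells was planned, but 1 IgM cell was found, so IgA and IgG were compared. Tests were checked on simulated counts. Named genes were up to 4 called per list by size of change, regulators, receptors and cytokines of the lists, and examples among the 10 largest changes in each direction outside the lists with at least 50 CPM that went the same way in both libraries. A result on 1 gene is not reported here.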

Additional observations from a re-analysis of the deposited data

How the results depend on the processing

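Plasma cells against B cells gave 3181 genes, and 1657 with DESeq2, 975 after thinning to 1000 non-immunoglobulin UMIs and 877 without the 5% of cells with the most UMIs. Plasma cells against plasmacytoid dendritic cells gave 2844, and 1040, 571 and 764 under the same settings. Without the replicate block these became 2427 and 2163. Dividing against other plasma cells gave 548, and 277 with DESeq2, 1016 with scaling without immunoglobulin genes, 1112 with no low-count filter, 331 without the replicate block, 106 after thinning and 883 when dividing needed 5 UMIs. IgA against IgG gave 15, and 8, 9, 72, 0 and 5 under the first 5 of these settings, 4 with 0 UMIs of other lineages, 25 without dividing cells, 5 with isotype calls at 90% and 8 with V pairs that had both isotypes. Thinning left fewer genes to test (2057 of 7293 against B cells, 424 of 4052 for dividing cells), and the limit on deep cells fewer cells. For the other settings the cause was not tested.

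Against B cells, Cd274 turned to −0.72 without the deepest cells and ranged from −0.21 to 1.03 when a library was left out, Isg15 to −1.17 with 0 UMIs of other lineages, and Itgb7 to 0.32 without dividing cells, with −0.58 to 0.12 when a library was left out. With no Jchain limit and 2 UMIs of Xbp1 and Mzb1, the mean kappa share was 76.3% and the mean immunoglobulin share 48.5%. At this setting IgG and IgA were 57.4% and 14.9% of 47 cells in library 1, and 46.2% and 48.4% of 91 cells in library 2. Leaving out each library gave plasma cell shares of 0.500% to 1.01%, IgG of 47.8% to 75%, IgA of 19.4% to 50%, kappa of 81.1% to 91.7%, dividing of 13.9% to 23.3%, immunoglobulin shares of 53.8% to 59.4% and frequent V pairs of 58.3% to 84.4%. Leaving out library 1 or 2 left no residual degrees of freedom, so no test was run. The IgA comparison could not be formed without the deepest cells or with sums of 10 cells, nor the dividing one with 0 UMIs of other lineages.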
